A study of Homo sapiens with 16 samples.

Results

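The genes of transcellular calcium transport, best known as the vitamin D programme of intestine and kidney, were read in OVCAR3, an established human ovarian carcinoma line, with and without 1,25(OH)2D3 (calcitriol, the active vitamin D hormone). The 10 genes were TRPV6, TRPV5, S100G, CALB1, CALB2, ATP2B1, SLC8A1, CASR, STC1 and STC2, chosen by name with earlier results of these data known. On the U133A array they were covered by the 19 of 22283 probe sets that the platform annotation assigns to exactly 1 of these symbols. On the older U95 array 11 of 12626 probe sets covered 9 of the genes, and TRPV5 had none.

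The study compared OVCAR3 cells given 1,25(OH)2D3 for 8, 24 or 72 h with cells given only the ethanol vehicle, with 3 U133A arrays per group from 3 independent experiments. Hormone was added at staggered times so that every culture was collected together after the same exposure to ethanol. A dose of 0.1 pM is stated, and the array data offer no check of that unit. A preliminary set of U95 arrays held 1 sample for each time and has no replicate check. A single cell line stands for the tissue, and in RNA from whole cultures fewer cells of a type and less RNA per cell cannot be told apart. The RNA for U133A came from cells whose response had been tested beforehand by a Northern blot for GADD45.

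In the intestine and the distal kidney tubule, calcium enters epithelial cells through apical TRPV6 and TRPV5 channels, is carried across the cytosol by calbindins, and leaves through a plasma membrane calcium pump and a sodium-calcium exchanger. The hormone-bound vitamin D receptor is known to act on several of these genes by binding, with its RXR partner, to paired DNA hexamers. The calcium-sensing receptor and the stanniocalcins act above this route as a sensor of, and as secreted signals for, calcium balance.

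The deposited values are MAS5 signals, an intensity per probe set on a linear scale. Changes are log2 differences of (signal + 15.833), tested with limma and adjusted with the Benjamini-Hochberg method, with a threshold of 0.05. Array medians lay between 168 and 196 and the correlations between arrays between 0.958 and 0.976. CYP24A1, which encodes the enzyme that degrades the hormone and is its classical target, had signals between 5177 and 8808 on the 9 treated arrays, against 56.4 to 247 on the 3 vehicle arrays. All 11 markers of ovarian carcinoma and epithelium lay above the filter on low values, which removed genes whose mean over the 12 arrays fell in the lower 40% of 11963 genes. Of 5 enterocyte markers (VIL1, FABP2, SI, ALPI and CDX2) 0 lay above it, and the counts were 1 of 3 for distal nephron, 3 of 7 for fibroblast, 0 of 4 for leukocyte and 0 of 4 for endothelial markers. The summed signal of the enterocyte markers was 127 to 194 at 8 h, 44.6 to 158 at 24 h and 99.8 to 164 at 72 h, against 78.4 to 123 in vehicle cells. That of the distal nephron markers was 422 to 568, 493 to 578 and 452 to 682 at the same times, against 525 to 565 in vehicle cells. AQP2 gave 347 of its mean of 543 in vehicle cells. Of the enterocyte markers, FABP2 averaged 57.3 at 8 h and 56.5 at 72 h, against 13.6 in vehicle cells. VIL1 averaged 34.3 at 72 h, against 56.6. By limma, 2 of the 11 ovarian markers rose and 2 fell at 24 h (2.45% and 1.62% of all genes). At 72 h 3 rose and 1 fell (3.86% and 2.98%), and at 8 h 1 rose (0.766% in both directions). The part of these levels in the results below was not tested.

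4 of the 10 genes had a mean signal above the filter, namely TRPV6, ATP2B1, STC1 and STC2. TRPV6 did so narrowly, at the 41.8th percentile of gene means, and through its treated arrays. TRPV5 (39.7), CALB2 (38.6), SLC8A1 (34.5), CALB1 (18.2), CASR (17.1) and S100G (7.88) lay at lower percentiles. Every probe set of the 10 genes was therefore also tested in a fit over all 22215 non-control probe sets with no filter.

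The DNA before the start sites of TRPV6 and TRPV5 is shown because TRPV6 carries the main change and TRPV5 is its neighbour and closest relative, and that of S100G because it is the classical intestinal buffer gene. Each window is the 250 bases upstream of the start in RefSeq (GRCh38.p14), matched by symbol for 7 of the 10 genes, without CALB1, CALB2 and STC1. The windows were read on the strand of the gene, 5′ to 3′. They were searched on both strands for the receptor hexamer AGGTCA, for the variant hexamer AGTTCA, for the variant hexamer GGGTCA, for the variant hexamer GGTTCA, and for the TATA box letters TATAAA. Capitals mark a match, on either strand.
TRPV6 (chr7:142885746-142885995, minus strand): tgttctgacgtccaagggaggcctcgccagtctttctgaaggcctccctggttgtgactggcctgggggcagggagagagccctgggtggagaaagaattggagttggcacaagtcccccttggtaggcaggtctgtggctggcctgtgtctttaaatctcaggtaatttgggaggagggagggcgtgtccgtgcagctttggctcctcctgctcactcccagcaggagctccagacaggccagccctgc
TRPV5 (chr7:142933747-142933996, minus strand): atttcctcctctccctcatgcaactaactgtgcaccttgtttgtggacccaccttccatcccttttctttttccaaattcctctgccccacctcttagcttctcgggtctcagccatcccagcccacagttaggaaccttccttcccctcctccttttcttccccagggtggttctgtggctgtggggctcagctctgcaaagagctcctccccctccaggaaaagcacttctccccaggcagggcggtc
S100G (chrX:16649908-16650157, plus strand): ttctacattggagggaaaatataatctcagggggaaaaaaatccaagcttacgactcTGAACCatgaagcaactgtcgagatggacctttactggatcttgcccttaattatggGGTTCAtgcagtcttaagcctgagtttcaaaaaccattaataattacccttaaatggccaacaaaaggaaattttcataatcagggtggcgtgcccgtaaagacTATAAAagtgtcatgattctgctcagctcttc

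The S100G window held GGTTCA 136 bases before the start on its own strand and 193 bases before it on the other strand, and TATAAA 32 bases before the start. The TRPV6 and TRPV5 windows, with a GC content of 60.4% and 56%, held none of these letters, which says nothing of sites elsewhere. Among 35116 windows of the same length, 33.8% held at least 1 of the 4 hexamers, 10.7% held TATAAA, and 0.0655% held 2 hexamers 3 bases apart on 1 strand. The annotated TRPV6 and TRPV5 genes are 22355 bases apart on chromosome 7.

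TRPV6, the apical calcium channel of the intestine, was the member gene that rose with 1,25(OH)2D3. Its only U133A probe set, 206827_s_at, had signals of 93.9, 115 and 19.4 in vehicle cells, of 185, 136 and 167 at 8 h, of 307, 220.2 and 263 at 24 h, and of 554, 295 and 317 at 72 h. Every treated array lay above every vehicle array, the 8 h arrays lay below all 24 h arrays, and the 24 and 72 h arrays overlapped. The group means were 76.3 ± 50.4 in vehicle cells, 163 ± 24.7 at 8 h, 263 ± 43.4 at 24 h and 389 ± 144 at 72 h (SD, n = 3 each), and the third vehicle array stood well below the other vehicle arrays.

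In the fit over 7178 genes, TRPV6 was 2.29 higher on the log2 scale at 72 h (SE 0.38, limma adjusted p = 0.0012) and 1.80 higher at 24 h (SE 0.38, adjusted p = 0.011). At 8 h the difference was 1.15 (95% interval 0.34 to 1.97, adjusted p = 0.34) and did not pass. With no filter on low values the gene still passed at 72 h (adjusted p = 0.0052) and 24 h (adjusted p = 0.037), while in the fit over all probe sets the values were 0.0080 and 0.0503. The 24 h call was lost without the first 24 h array (adjusted p = 0.055). Without the third vehicle array the log2 differences were 1.70 at 72 h and 1.21 at 24 h, and both calls held (adjusted p = 0.0010 and 0.018), while the 8 h difference was 0.56 (adjusted p = 0.91). The F test over all times passed (adjusted p = 0.0061), as did 5.21% of all genes, and TRPV6 ranked 176 of 7178 genes in it. Between the times, the log2 differences of 0.64 (24 h against 8 h), 0.49 (72 h against 24 h) and 1.13 (72 h against 8 h) did not pass (adjusted p = 0.75, 0.66 and 0.15). The last of these passed without the third vehicle array (adjusted p = 0.017). That array is not part of this comparison, so the difference stayed at 1.13 while its adjusted p changed.

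On the single U95 arrays, TRPV6 (probe set 36806_at) had signals of 31.2 with vehicle, 297 at 8 h, 441 at 24 h and 559 at 72 h. The log2 ratios to the vehicle array were 2.79, 3.34 and 3.67, where the 95th percentile of all U95 probe sets was 0.72, 0.71 and 0.79. Both array types thus placed vehicle lowest and 72 h highest for this gene.

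**Figure D1:**
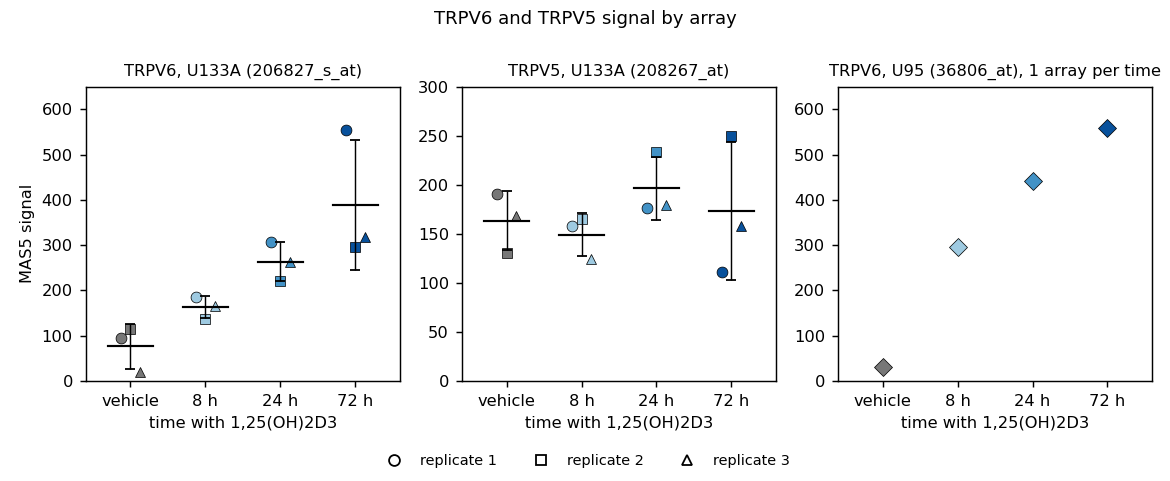
MAS5 signal (linear axis) of TRPV6 and TRPV5 on each U133A array and of TRPV6 on the U95 arrays, by time with 1,25(OH)2D3, with vehicle on the left. Points are arrays and bars are means with SD (n = 3). The 72 h TRPV6 arrays reach 295 to 554, above all vehicle arrays (19.4 to 115), while the treated TRPV5 groups each overlap vehicle.

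The genes whose log2 signal followed TRPV6 most closely over the 12 arrays were TRIM8, FOSL2, LRCH4, COL4A2 and CD151, with Pearson correlations of 0.92, 0.92, 0.92, 0.91 and 0.91. The 12 points share the 4 treatment groups and the same arrays. At 72 h these genes were higher by 1.22, 1.30, 0.63, 1.51 and 0.52 on the log2 scale, each past the threshold, where 3.86% of all genes passed upward. They were picked for their correlation with TRPV6 over arrays that include vehicle and 72 h. These differences therefore follow in part from the choice and are no separate result.

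TRPV5, the paired channel of the distal kidney tubule, had signals of 191, 131 and 168 in vehicle cells, of 158, 165 and 125 at 8 h, of 177, 234 and 180 at 24 h, and of 111, 250.2 and 158 at 72 h. The treated groups overlapped vehicle at each time, and the widest spread was at 72 h. The 24 h arrays lay above all 8 h arrays, with a log2 difference of 0.36 (95% interval -0.22 to 0.94) that did not pass (adjusted p = 0.91). The log2 difference at 72 h was 0.025, with a 95% interval from -0.56 to 0.61 in the fit over all probe sets (adjusted p = 0.99). Whether the responses of TRPV5 and TRPV6 differ was not tested.

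The cytosolic buffers carry calcium from the apical to the basolateral side. S100G, which encodes the intestinal calbindin, had signals of 24.5, 22.1 and 31.8 in vehicle cells, of 20.2, 20.2 and 17.4 at 8 h, of 14.6, 13.6 and 20.8 at 24 h, and of 23.1, 36.9 and 18.2 at 72 h. The 8 and 24 h arrays lay below all vehicle arrays, and the 72 h arrays overlapped them. These are signals near the 10th percentile of an array (13.4 to 17.7), and the log2 differences of -0.25 and -0.38 did not pass (adjusted p = 0.999 and 0.62). On the single U95 arrays its signal was 86.3 with vehicle, then 25.4, 10.0 and 16.2 at 8, 24 and 72 h.

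CALB1, the calbindin of the kidney tubule and of neurons, had group means of 40.6 to 50.8 on probe set 205625_s_at and of 48.1 to 62.7 on 205626_s_at, with overlapping groups at each time. CALB2, which encodes the neuronal and mesothelial buffer calretinin, had signals of 204, 100.5 and 176 in vehicle cells, of 163, 203 and 124 at 8 h, of 124, 171 and 166 at 24 h, and of 144, 249 and 144 at 72 h. Neither gene differed from vehicle past the threshold, and the 95% interval for CALB2 at 72 h ran from -0.48 to 0.80 on the log2 scale.

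**Figure D2:**
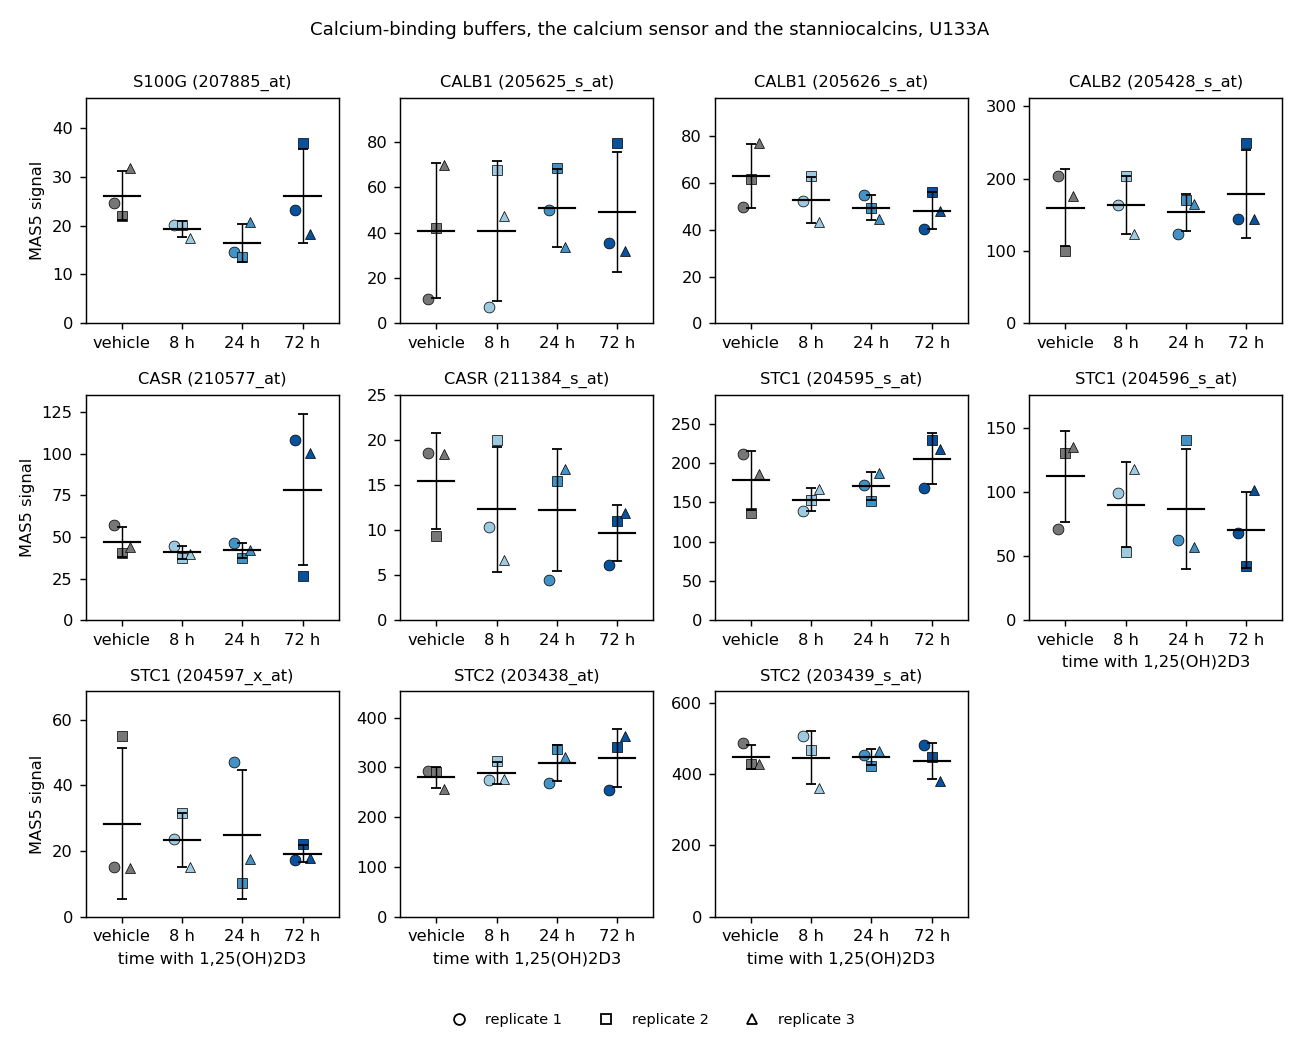
MAS5 signal of each probe set of the calcium-binding buffers, the calcium sensor and the stanniocalcins on each U133A array, by time, with vehicle on the left. Points are arrays and bars are means with SD (n = 3). S100G stays under 37 on all arrays, and none of the panels shows a change past the threshold.

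The basolateral exit genes gave 1 call, on 1 probe set of SLC8A1, the sodium-calcium exchanger. Probe set 211805_s_at had signals of 117, 94.1 and 129 in vehicle cells, of 45.1, 69.6 and 41.0 at 8 h, of 101, 77.9 and 96.5 at 24 h, and of 33.6, 39.9 and 41.8 at 72 h. The 8 and 72 h arrays lay below all vehicle arrays, whereas the 24 h arrays overlapped vehicle.

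In the fit over all probe sets, 211805_s_at fell by 1.24 on the log2 scale at 72 h (SE 0.26, adjusted p = 0.019). At 8 h its log2 difference was -0.94 (adjusted p = 0.33) and at 24 h -0.26 (adjusted p = 0.85). The 72 h call was lost without the first vehicle array (adjusted p = 0.076), without the third vehicle array (0.089) and without the first 72 h array (0.064). The difference of 72 h against 24 h was -0.99 and did not pass (adjusted p = 0.25).

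The other SLC8A1 probe sets had log2 differences at 72 h of -0.48 (210804_x_at) and -0.38 (207053_at), neither past the threshold, although the 72 h arrays of both lay below all vehicle arrays. The signals of 207053_at were 5.22 to 11.2 at 72 h, against 11.98 to 20.2 in vehicle cells, and those of 210804_x_at 97.4 to 137 at 72 h, against 160 to 203 in vehicle cells. All 3 probe sets thus stood lower at 72 h without overlap, as did 9.77% of all probe sets. They correlated at 0.11 to 0.44 with each other over the 12 arrays, and 207053_at read at most 20.2 on any array. The x_at suffix marks probes that can bind other transcripts. On U95 the exchanger (34915_at) read 93.7 with vehicle, then 92.8, 85.3 and 68.8.

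ATP2B1, the plasma membrane calcium pump of calcium-absorbing epithelia, did not change past the threshold on any of its 3 probe sets. Probe set 209281_s_at had signals of 933, 899 and 934 in vehicle cells, of 778, 894 and 939.5 at 8 h, of 1080.1, 726 and 943 at 24 h, and of 626, 716 and 731 at 72 h. The 72 h arrays lay below all vehicle arrays, with a log2 difference of -0.41 (95% interval -0.69 to -0.13, adjusted p = 0.15). This difference passed without the second 24 h array (adjusted p = 0.04998), which is not part of the comparison and left the difference at -0.41.

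The remaining probe sets of the pump did not follow that pattern. For 212930_at the 8 h arrays read 228 to 280.2, against 311 to 352 in vehicle cells (log2 -0.41, adjusted p = 0.66), and at 72 h the log2 difference was -0.051. For 215716_s_at, which has the highest mean and stands for the gene, the 24 h arrays read 968 to 1019.9, against 844 to 912 in vehicle cells (log2 0.17, adjusted p = 0.62). The 3 probe sets correlated at -0.17 to 0.22 over the 12 arrays. On U95, 34188_at read 251 with vehicle, then 145, 219 and 175, and 37661_at read 655, then 445, 578 and 520.1, so that both stood below the vehicle array at all times.

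**Figure D3:**
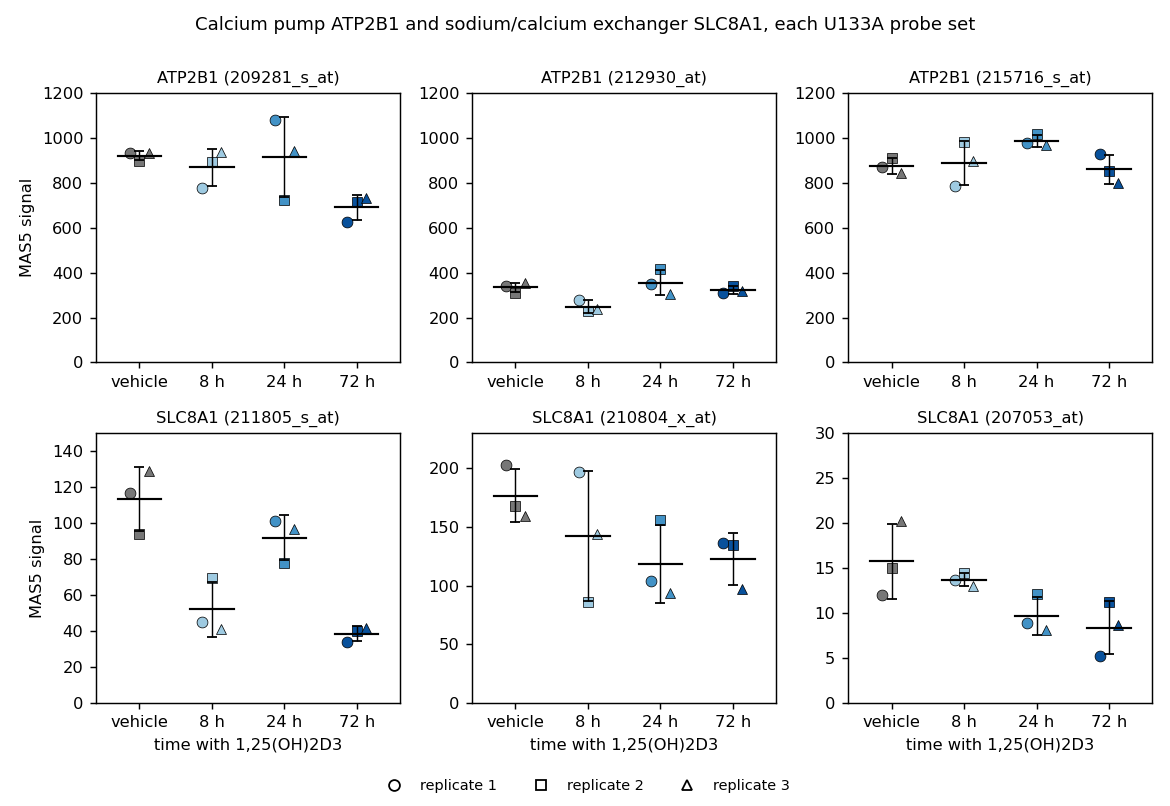
MAS5 signal of each U133A probe set of the calcium pump ATP2B1 and the exchanger SLC8A1, by time, with vehicle on the left. Points are arrays and bars are means with SD (n = 3). The 72 h arrays of SLC8A1 211805_s_at (33.6 to 41.8) lie below its vehicle arrays (94.1 to 129), and the ATP2B1 probe sets differ among themselves.

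CASR, the calcium-sensing receptor of the parathyroid and kidney, was low on both probe sets. Probe set 210577_at had signals of 57.0, 40.3 and 43.7 in vehicle cells, of 44.8, 37.6 and 39.6 at 8 h, of 46.1, 37.2 and 42.3 at 24 h, and of 108, 26.5 and 101 at 72 h. At 72 h 2 arrays lay above and 1 below all vehicle arrays (log2 0.44, 95% interval -0.33 to 1.21, adjusted p = 0.69). The other probe set, 211384_s_at, read at most 20.1 on any array and did not rise at 72 h (log2 -0.29, adjusted p = 0.70).

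The stanniocalcins are secreted glycoproteins that in fish lower calcium uptake. STC1 had group means of 153 to 205 on 204595_s_at, with log2 differences of -0.18, -0.042 and 0.20 at 8, 24 and 72 h, none past the threshold. Its other probe sets, 204596_s_at and 204597_x_at, had differences of -0.58 and -0.22 at 72 h, also not past it, and the 3 correlated at -0.43 to -0.18 with each other. STC2 had signals of 487, 427 and 429 in vehicle cells, of 506, 468 and 362 at 8 h, of 453, 422 and 466 at 24 h, and of 480.4, 449 and 380.4 at 72 h on 203439_s_at. The groups overlapped at each time, and the 95% intervals of the log2 differences from vehicle on this probe set lay within -0.34 and 0.30. On the other STC2 probe set, 203438_at, the groups overlapped as well. Its log2 differences were 0.042, 0.13 and 0.17 at 8, 24 and 72 h, with 95% intervals that reached from -0.31 to 0.52, and none passed (adjusted p = 0.76 at 72 h). The 2 probe sets correlated at -0.28 over the 12 arrays.

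Counted together, 0 of the 4 genes above the filter passed at 8 h, where 0.766% of all genes did. By limma 1 of the 4 had an unadjusted p under 0.05 there. TRPV6 alone passed upward at 24 h, where 2.45% of all genes did, and at 72 h, where 3.86% did. These are not counts over all 10 genes, and TRPV6 lay above the filter through its treated arrays.

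Over the 19 probe sets, 0 passed at 8 h (0.248% of all probe sets) and 0 at 24 h (1.41%), with 3 and 1 at an unadjusted p under 0.05. At 72 h 1 passed upward (1.47% of all) and 1 downward (1.14%), for TRPV6 and SLC8A1. In the F test 1 of 19 passed, where 1.86% of all did. The median log2 difference of the 19 was -0.11, -0.042 and -0.039 at 8, 24 and 72 h, where that of all probe sets was -0.0079, -0.030 and -0.024.

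The treated arrays stood clear above vehicle for 1 probe set at 8 h (5.5% of all), 2 at 24 h (6.83%) and 1 at 72 h (7.89%). They stood clear below it for 3 at 8 h (5.99%), 2 at 24 h (9.51%) and 4 at 72 h (9.77%). The 4 at 72 h were the 3 of SLC8A1 and 209281_s_at of ATP2B1. Between times, 0 of 4 genes passed at 24 h against 8 h (0.641% of all genes), 72 h against 24 h (0.153%) or 72 h against 8 h (2.52%), with 0, 0 and 1 at an unadjusted p under 0.05 by limma.

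On U95, 2 of 11 probe sets had a log2 ratio over 1 at 8 h (2.75% of all probe sets), 1 at 24 h (2.79%) and 3 at 72 h (3.22%), and 1, that of S100G, was under -1 at each time (3.61%, 5.18% and 6.43%). TRPV6 was over 1 at all times, against a single vehicle array with a low signal of 31.2. The others over 1 were CALB1 at 8 h and CASR (38959_s_at) and STC1 at 72 h, with vehicle signals of 8.74, 23.8 and 13.3, near the value of 13.87 added before the logarithm.

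**Figure D4:**
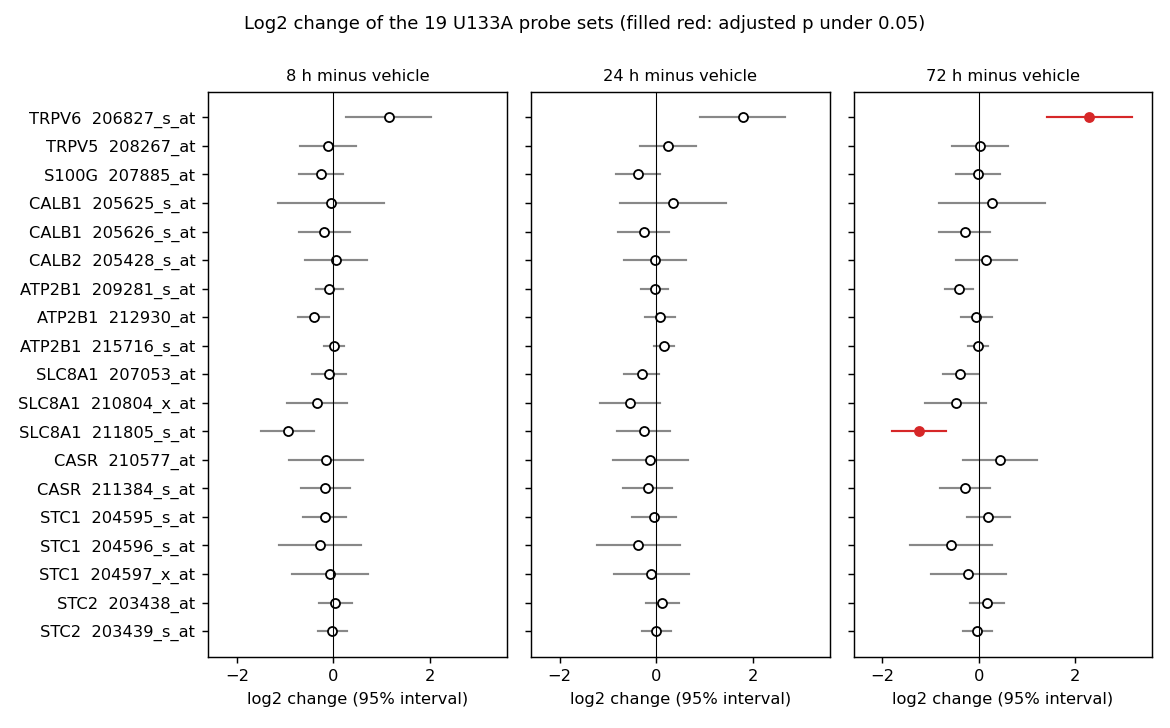
Log2 change of each of the 19 U133A probe sets at 8, 24 and 72 h against vehicle, with 95% intervals, from the fit over all probe sets. Filled red points passed the threshold, which at 72 h are TRPV6 (2.29) and SLC8A1 211805_s_at (-1.24), and TRPV6 at 24 h (1.80) has an adjusted p of 0.0503 in this fit.

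The remaining genes of cellular calcium handling were described from 6 lists with 99 genes, of which 81 had a probe set of their own and 46 lay above the filter. None passed at 8 h by limma, with 5 at an unadjusted p under 0.05. At 24 h 4 passed upward and 1 downward (2.45% and 1.62% of all genes), and at 72 h 7 passed upward and 2 downward (3.86% and 2.98%). The shares of lower genes rest on 116 calls at 24 h and 214 at 72 h. Without the first, the second or the third vehicle array the calls were 65, 75 and 69 at 24 h and 119, 142 and 130 at 72 h, and without the first 24 h array 77 at 24 h. The median log2 difference of the 46 was 0.0099, 0.037 and 0.081 at 8, 24 and 72 h, where that of all genes was -0.0040, -0.016 and -0.015.

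Among partners and regulators of the TRPV channels, 1 of 10 tested genes rose at 24 h and 3 at 72 h, and none fell. SGK1, a kinase that raises the amount of TRPV channels at the membrane, averaged 319 ± 65.3 at 24 h and 310 ± 25.6 at 72 h, against 166 ± 39.4 in vehicle cells (SD, n = 3 each). Its log2 differences were 0.89 and 0.86 (adjusted p = 0.017 and 0.015), and both calls were lost without the first vehicle array (0.095 and 0.079). The 72 h call was also lost without the first 72 h array (0.056), and the 24 h call without the first (0.053) or the second (0.084) 24 h array. S100A10, which with annexin A2 brings TRPV5 and TRPV6 to the membrane, was 0.61 higher at 72 h (adjusted p = 0.014). That call was lost without the first vehicle array (0.075) or the third 72 h array (0.064). In the limma fit over all probe sets, S100A10 at 72 h (adjusted p = 0.054) and SGK1 at 24 h (0.060) did not pass, while SGK1 at 72 h did (0.047). RAB11A, a GTPase of recycling endosomes, was 0.30 higher at 72 h (adjusted p = 0.045, and 0.072 in the fit over all probe sets). Its other probe set had a difference of -0.22, the mean of both gave 0.038 (adjusted p = 0.88), and the call was lost with median centring (adjusted p = 0.12) and without any of 9 of the 12 arrays.

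Among the other genes of basolateral extrusion and the sodium gradient, 1 of 5 rose. ATP2B4, a plasma membrane calcium pump of the same family as ATP2B1, averaged 2186 ± 404 at 24 h and 2134 ± 135 at 72 h, against 1082 ± 144 in vehicle cells (SD, n = 3 each). The log2 differences were 0.19 at 8 h (adjusted p = 0.98), 0.99 at 24 h (adjusted p = 2.5e-04) and 0.98 at 72 h (adjusted p = 1.9e-04). Its 3 probe sets were higher by 0.98, 0.76 and 0.68 at 72 h, the last not past the threshold in the fit over all probe sets (adjusted p = 0.089).

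Of 5 tested claudins, proteins of tight junctions that set paracellular permeability, CLDN10 rose at 72 h (log2 0.69, adjusted p = 0.0016). Of 9 genes of intracellular stores and store-operated entry, ORAI3, a subunit of plasma membrane calcium channels, rose at 72 h (log2 0.69, adjusted p = 0.0054). Of 8 hormones, receptors and sensors none passed at any time by limma, with 0, 2 and 2 at an unadjusted p under 0.05 at 8, 24 and 72 h.

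The S100 and EF-hand binders, relatives of S100G, moved in both directions, with 2 of 9 up and 1 down at 24 h and 1 up and 2 down at 72 h. S100A6, a small calcium binder, was 0.54 higher at 24 h and 0.69 higher at 72 h (adjusted p = 0.0017 and 1.2e-04). S100A2 was 0.46 higher at 24 h (adjusted p = 0.018), a call lost without the first (adjusted p = 0.10) or the third (0.052) vehicle array and without the second (0.054) or the third (0.061) 24 h array. S100A8, a subunit of the secreted calprotectin, averaged 186 ± 55.6 at 24 h and 88.2 ± 24.3 at 72 h, against 490.3 ± 96.9 in vehicle cells (SD, n = 3 each). Its log2 differences were -1.35 and -2.29 (adjusted p = 0.0033 and 1.7e-05), while its other probe set, with a mean signal of 8.86, had -0.30 at both times. S100A1, a calcium binder of heart and skeletal muscle, fell by 0.97 on the log2 scale at 72 h (adjusted p = 0.0023).

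**Figure D5:**
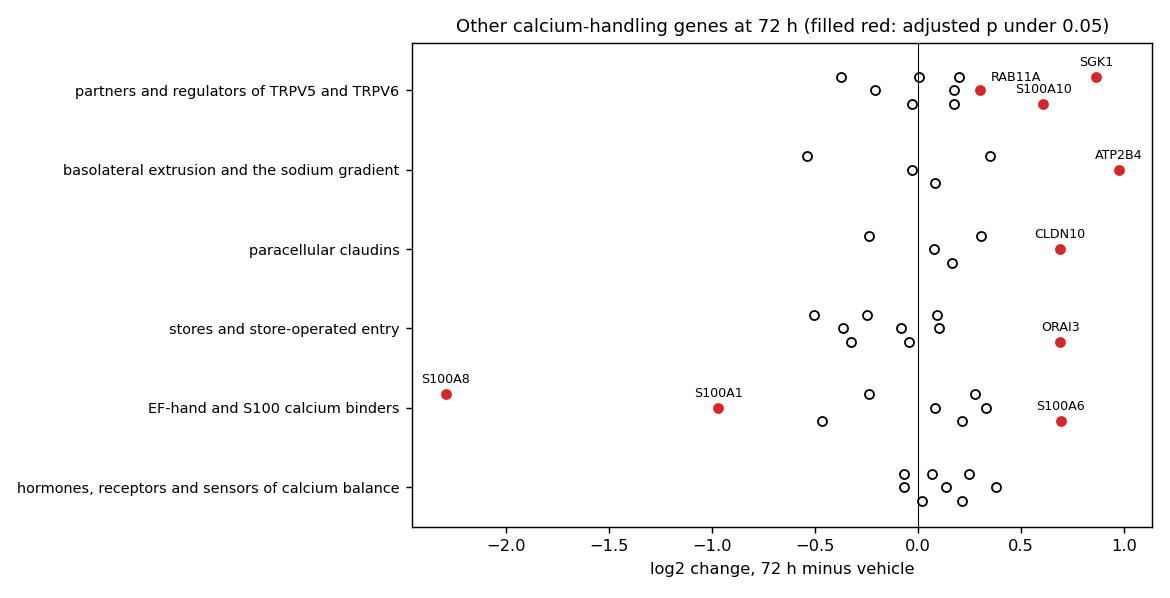
Log2 change at 72 h against vehicle of the 46 tested genes of the 6 calcium-handling lists, 1 row per list. Each point is a gene and filled red points passed the threshold. The widest changes among them are S100A8 downward (-2.29) and ATP2B4 upward (0.98).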

How the data were processed

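OVCAR3 RNA was measured on 12 U133A arrays (4 groups of 3) and 4 U95 arrays (1 per time). The authors deposited an intensity for every probe set, which the submitters' processing notes call MAS5 with no version. The 2% trimmed mean was 500.2 on every U133A array, so no further scaling was applied. Detection calls were left aside. The platform annotation gave 19071 U133A probe sets 1 gene, 1043 several and 2169 none. Promoter windows came from RefSeq (GRCh38.p14).

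In R 4.3.3 and data.table (version 1.17.8), values were transformed as log2(signal + 15.833), the number added being the 10th percentile over the U133A arrays (13.87 for U95). The gene fit used the probe set with the highest mean for each of 11963 genes and left out the lower 40%, which left 7178. The probe set fit used all 22215 non-control probe sets. Both used limma 3.58.1 (eBayes with trend) with 1 term per group, 8 residual degrees of freedom, no replicate block and Benjamini-Hochberg adjustment over every feature in the fit, at 0.05. The contrasts with vehicle share the same vehicle arrays. The U95 arrays were described without a test. The number of arrays limits the precision.

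Arrays with the same replicate number deviated together in all 18 pairs (correlation 0.052 to 0.26), but all 3 pairs of a comparison exceeded 0.1 only for 24 h against 8 h and 72 h against 24 h. The labels count 3 independent experiments without tying the numbers to them.

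The genes, gene lists, marker lists and the rule for naming genes were chosen with earlier results of these data known. By that rule the text names every member gene, up to 4 genes with the lowest F test p of each list, and the 5 genes most like a member that passed the F test. The alternatives tried were another pseudocount, another filter, averaging the probe sets of a gene, quantile normalization, median centring, a replicate block and leaving out each array.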

Additional observations from a re-analysis of the deposited data

Results flagged for a closer look

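Among the 10 member genes no difference between times passed the threshold. Among the other calcium-handling genes, 7 differences between treated times did in the fit over all genes (limma, Benjamini-Hochberg adjusted over 7178 genes). ATP2B4 was higher by log2 0.80 at 24 h against 8 h (adjusted p = 0.0099) and by 0.78 at 72 h against 8 h (adjusted p = 0.0038). CLDN10 was higher by 0.71 (adjusted p = 0.0036), S100A10 by 0.65 (adjusted p = 0.020) and S100A6 by 0.43 (adjusted p = 0.015) at 72 h against 8 h. Over the same interval S100A8 had a log2 difference of -1.84 (adjusted p = 3.9e-04) and S100A1 of -0.86 (adjusted p = 0.014). For comparison, 2.52% of all genes passed at 72 h against 8 h and 0.641% at 24 h against 8 h.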

How the results depend on the processing

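Across 2868 comparisons of a value with its alternative, 2823 stayed on their side of the threshold, 27 lost a call, 18 gained one and 0 reversed a called value. The sign changed in 110 comparisons, all of values not called. Most values were not called as reported, many with an adjusted p far above the threshold, and some probe sets count in both fits. The total is therefore no measure of how firm the calls are. Among called values, RAB11A at 72 h lost its call in 12 of 19 alternatives and S100A2 at 24 h in 4 of 19. TRPV6 in the gene fit passed at 72 h under all 19 alternatives, with log2 differences of 1.70 to 2.65. It lay above the filter through its treated arrays, and most alternatives kept the same genes, so this is no separate support. With no filter on low values TRPV6 passed at 72 h with a limma adjusted p of 0.0052. With the replicate block it passed at 24 h (adjusted p = 0.0060) and 72 h (6.8e-04), and the block changed no call of a member gene. Of member genes, 1 was called at 72 h whichever array was left out, while the count ranged from 0 to 1 at 24 h and from 0 to 1 for 72 h against 8 h. Of member probe sets, the count ranged from 0 to 1 at 24 h and from 1 to 3 at 72 h when arrays were left out. The probe set count at 24 h, 0 as reported, was 1 (TRPV6) with 4 times the pseudocount (adjusted p = 0.046), with the lower 40% left out (0.016) and with the replicate block as a pairing of the arrays (0.034). At 72 h it was 1, without SLC8A1, when the lower 40% was left out, since 211805_s_at lies there. Median centring split the calls of all genes at 24 h into 158 higher and 72 lower, where 176 and 116 were reported, and at 72 h into 240 and 153, where 277 and 214 were reported. The replicate block gave 69 higher and 15 lower genes at 8 h, where 51 and 4 were reported. At 24 h it gave 232 and 188, where 176 and 116 were reported, and at 72 h 362 and 291, where 277 and 214 were reported. With the block, CLDN3, SLC20A1 and ITPR3 passed at 24 h (adjusted p = 0.015, 0.048 and 0.041) and S100A2 and TMCO1 at 72 h (0.038 and 0.018), none of which passed as reported. Without the first vehicle array the lower calls of all genes were 65 at 24 h and 119 at 72 h. The cause of these shifts was not tested. Signals near the 10th percentile of an array limit what can be read for S100G and for probe sets 211384_s_at (CASR), 207053_at (SLC8A1) and 204597_x_at (STC1). Low signals above that level on most or all arrays limit it for CALB1 (7.02 to 79.5 and 40.4 to 76.9) and CASR 210577_at (26.5 to 108). The same holds for SLC8A1 211805_s_at (33.6 to 129) and STC1 204596_s_at (42.3 to 141). The vehicle arrays of TRPV6 (19.4 to 115) were low as well, which limits the size of its change. With 4 times the pseudocount its log2 difference at 24 h was 1.29, where 1.80 was reported.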

Other observations

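The following calcium-handling genes had differences from vehicle that did not pass at any time in the fit over all genes, although CLDN3 passed the F test over all times (limma adjusted p = 0.043). CLDN3, a tight junction claudin, averaged 1075 ± 44.3 at 24 h, against 1480 ± 199.8 in vehicle cells (SD, n = 3 each), with a log2 difference of -0.45 (adjusted p = 0.058). SLC20A1, a sodium-phosphate cotransporter, had a log2 difference of 0.45 at 24 h (adjusted p = 0.097), and ITPR3, a calcium release channel of the endoplasmic reticulum, one of 0.39 (adjusted p = 0.11). The CLDN3 difference passed without the first or the third 72 h array (adjusted p = 0.027 and 0.042). Those arrays are not part of the 24 h comparison, and the CLDN3 difference stayed at -0.45. That of SLC20A1 passed without the second 24 h array (0.028), and all 3 differences passed with the replicate block. The 24 h arrays of all 3 genes lay outside the range of the vehicle arrays. The shares that follow are over all probe sets, including low ones that the gene fit left out. Clear above vehicle stood 6.83% at 24 h (5.5% at 8 h), and clear below it 9.51% at 24 h. CLDN3, SLC20A1 and ITPR3, and ATP2C2 below, were named for a low F test p over the same arrays. ATP2C2, a calcium and manganese pump of the secretory pathway, stood above vehicle at 8 and 24 h (log2 0.47 and 0.49, adjusted p = 0.60 and 0.24) and overlapped it at 72 h.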
